A study of Mus musculus with 16 samples.

Results

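Chronic social defeat leaves some mice avoiding other mice and others not, and this comparison asks which genes differ between the medial prefrontal cortex (mPFC) of the susceptible and the resilient mice in the same way in both hemispheres. It rests on the 12 arrays of the 16 in the series that hold defeated mice, 6 susceptible and 6 resilient, chosen by their labels. Each group has 3 arrays of the left and 3 of the right mPFC. All mice were C57BL/6J males. The susceptible and resilient mice were 8 weeks old at defeat and were attacked by an aggressive CD-1 male for 10 min on each of 10 days. They were then divided by an interaction ratio of below 1 (susceptible) or above 1 (resilient), which is the time spent near an unfamiliar CD-1 mouse over the time spent there without it. For the arrays the study left out mice with intermediate ratios close to 1, so the groups are selected mice. Non-defeated control mice, with 2 arrays per side, are given here for orientation only. The tissue was taken 1 day after the interaction test. The labels give 7 mice a group, and the methods give a different number for the resilient and control mice. Left and right tissue came from the same mice of each group, and which mice each array holds is not given in the sources used here, so the 6 arrays of a group are not 6 independent samples. The study pooled equal amounts of RNA from individual mice, so a p value here measures the spread between arrays, which may be technical, and 1 strongly changed mouse cannot be told apart from a change in all mice of a pool.

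MouseRef-8 v2 BeadChips measure each gene by the fluorescence of a short probe, given here as a log2 signal after quantile normalization. No background was subtracted, so changes of dim genes are understated. The mean raw signal of an array was 380 to 502 in susceptible, 376 to 552 in resilient and 505 to 567 in control mice. Replicate 1 of each defeated group and all 4 control arrays stand in the first 8 columns of the deposited table, and replicates 2 and 3 in the last 8. Of the genes on the array 8419 were detected on all 16 arrays and tested, among them 7 of the 9 cortical neuron markers on the array, but only 1 of 7 choroid plexus and ependyma genes. The change of a gene is the susceptible minus the resilient log2 signal on each side, and the common change is the mean of both sides with its standard error. A gene is called when limma's Benjamini-Hochberg adjusted p of the common change is below 0.05, and it is counted as common only when both sides have the same sign.

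Interferons signal through STAT transcription factors, which bind the GAS motif, and through complexes and IRF factors that bind the interferon-stimulated response element (ISRE). Among the most inducible targets are large GTPases, the guanylate-binding proteins (Gbp) and immunity-related GTPases (Irg), which attack the vacuoles of intracellular pathogens. Clustered histone genes encode the bulk of new histones and are classically transcribed in dividing cells, although some are read in neurons too.

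Interferon-inducible GTPases had 3 of the 4 largest common decreases, and the windows upstream of the start sites of 4 such genes are shown because the results turn on them. Each window is the 120 bases before the first listed RefSeq start site (GRCm38.p6), read 5′ to 3′ on the gene's strand, with ISRE and GAS matches in capitals. The ISRE was searched as GAAANNGAAA or, on the other strand, TTTCNNTTTC, and the GAS motif as TTCNNNGAA, which reads alike on both strands.

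Gbp2 (chr3:142620543-142620662, plus strand): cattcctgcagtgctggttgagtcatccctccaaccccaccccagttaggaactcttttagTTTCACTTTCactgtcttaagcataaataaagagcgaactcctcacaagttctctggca

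Igtp (chr11:58199436-58199555, plus strand): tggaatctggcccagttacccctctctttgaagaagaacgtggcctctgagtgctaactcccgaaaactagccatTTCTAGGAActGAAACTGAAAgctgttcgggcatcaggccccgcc

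Irgm2 (chr11:58214857-58214976, plus strand): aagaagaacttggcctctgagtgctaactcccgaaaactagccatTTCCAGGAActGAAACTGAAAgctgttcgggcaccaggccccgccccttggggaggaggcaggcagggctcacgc

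Gbp3 (chr3:142559924-142560043, plus strand): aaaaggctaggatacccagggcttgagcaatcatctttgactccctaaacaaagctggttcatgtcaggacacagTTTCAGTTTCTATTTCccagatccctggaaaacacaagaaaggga

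All 4 windows hold an ISRE match, beginning 59 bases before the start site in Gbp2, 34 in Igtp, 64 in Irgm2 and 45 in Gbp3, where a second match overlaps the first. Igtp and Irgm2 also hold a GAS match just before it, and 87 of 90 aligned bases of these neighbours on chromosome 11 are the same, so their matches are not independent. Of 32851 promoter windows of 300 bases, 3.44% hold an ISRE match, 8.30% a GAS match and 0.454% both. Ifit3, Ifitm3 and Irgm1 also hold an ISRE match in that window, and Irf1 and Ifitm3 a GAS match, whereas Ccl12 and Oasl2 hold neither. Gbp3 and Irf1 each have a second RefSeq start site, whose window of 300 bases holds neither motif. A match is a description of these letters only.

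The common change was called with the same sign on both sides for 64 genes lower in susceptible than in resilient mice and for 25 higher. These are 0.76% and 0.297% of the genes tested and together 89 genes (1.06%), of 104 (1.24%) called with either sign pattern, and 51.5% of all genes had the same sign on both sides whether called or not. The changes were small, between 0.163 and 0.780 on the log2 scale for the lower genes (median 0.241) and between 0.172 and 0.367 for the higher ones (median 0.204). On each side alone the 3 susceptible and 3 resilient arrays did not overlap for 28 of the 64 lower and 18 of the 25 higher genes, against 0.903% and 0.915% of all genes. All 6 arrays of a group lay apart from all 6 of the other for 19 of the lower and 12 of the higher genes, against 0.439% and 0.463%. On the left alone 172 genes (2.04%) were called and on the right alone 47 (0.558%). The split depends on scaling: with arrays scaled to a common median instead of quantile normalized, 4 genes were called lower and 0 higher by limma, with 163 and 15 at an unadjusted p below 0.05. With left and right arrays of one replicate number as a random block 47 were called lower and 12 higher, and with their mean, 3 against 3, 35 and 6. The higher count also fell to 11 to 13 genes without any 1 of resilient left replicates 2 and 3, resilient right replicate 3, susceptible left replicate 3 and susceptible right replicate 1, and the lower count to 41 without resilient left replicate 3. The 4 called with median scaling, Gbp2, Igtp, Irgm2 and Ccl12, are the interferon-inducible GTPases and chemokine described next.

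**Figure D1:**
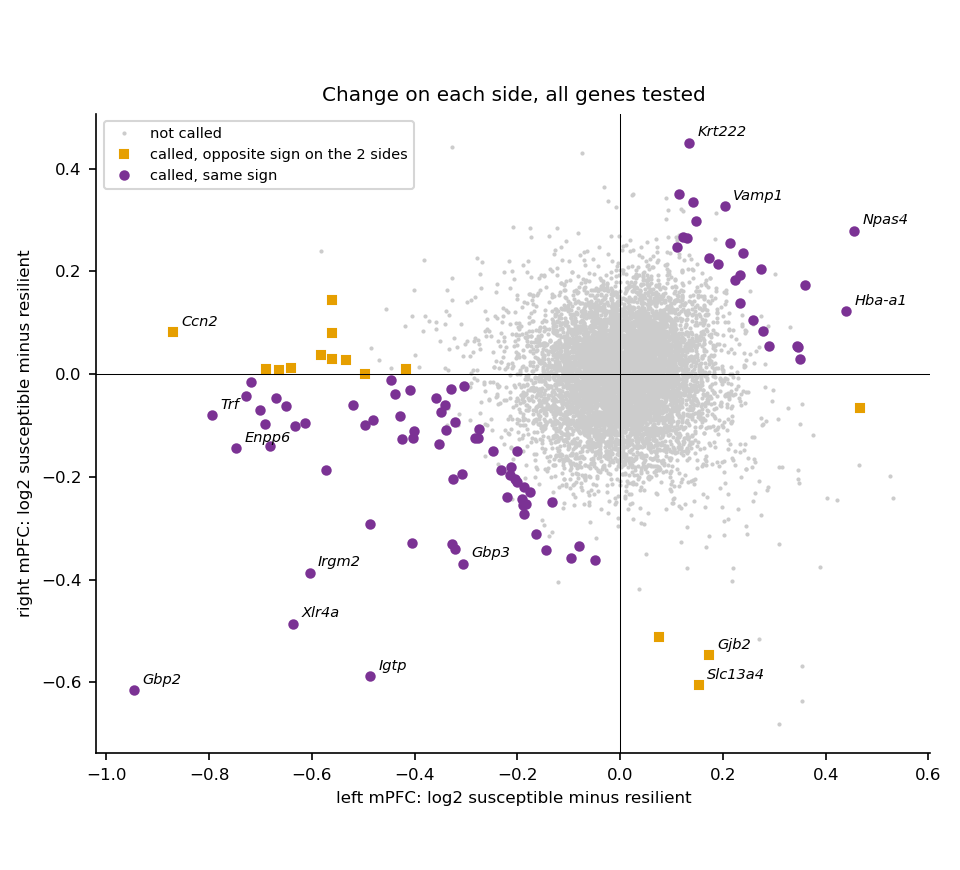
Each point is 1 of the 8419 genes tested, placed by its susceptible minus resilient log2 change in the left mPFC (x axis) and right mPFC (y axis). The purple points are the 89 genes called with the same sign on both sides and the orange squares the 15 called with opposite signs, and Gbp2, Xlr4a, Igtp and Irgm2 lie farthest along the lower diagonal.

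The GTPase Gbp2 had the largest common change. Its log2 signal was 7.11, 7.10 and 7.04 on the susceptible left arrays and 7.02, 7.06 and 7.10 on the susceptible right arrays, against 7.98, 8.06 and 8.05 on the resilient left and 7.60, 7.74 and 7.68 on the resilient right arrays. The 6 susceptible arrays all lay below the 6 resilient ones, and the 4 control arrays, at 6.92 to 7.07, overlapped the susceptible arrays or lay below them. The common change was -0.78 ± 0.04 (SE, n = 6 arrays a group, limma adjusted p 5.8e-11), a 1.72-fold lower signal in susceptible mice. The decrease was -0.95 on the left and -0.61 on the right, and this difference between sides was itself called (adjusted p 0.045). With normexp background correction the common change was -1.26.

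Igtp and Irgm2 belong to the immunity-related GTPases. Igtp had log2 signals of 7.25, 7.16 and 7.18 on the susceptible left and 7.06, 7.08 and 7.00 on the susceptible right arrays, against 7.62, 7.69 and 7.75 on the resilient left and 7.53, 7.69 and 7.67 on the resilient right arrays. Irgm2 had 7.00, 7.13 and 7.16 on the susceptible left and 7.19, 7.07 and 7.25 on the susceptible right arrays, against 7.69, 7.74 and 7.67 on the resilient left and 7.50, 7.55 and 7.63 on the resilient right arrays. Neither gene's groups overlapped, and the control arrays, at 7.05 to 7.16 for Igtp and 7.08 to 7.16 for Irgm2, fell within the susceptible range. The common changes were -0.54 ± 0.05 for Igtp (adjusted p 9.2e-08) and -0.50 ± 0.05 for Irgm2 (adjusted p 6.3e-07), each called on both sides separately. With normexp they were -0.90 and -0.83.

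Gbp3, the neighbour of Gbp2 in the same gene cluster, was lower by a smaller amount. It read 7.35, 7.46 and 7.38 on the susceptible left and 7.49, 7.39 and 7.27 on the susceptible right arrays, against 7.76, 7.66 and 7.69 on the resilient left and 7.88, 7.68 and 7.69 on the resilient right arrays. These groups did not overlap either, and the common change was -0.34 ± 0.05 (adjusted p 0.00029). Of the Gbp and Irg genes, 5 passed the detection filter, of 16 on the array, and 4 of these 5 were called lower, against 0.76% of all genes. The fifth, Irgm1, has 2 detected probes that differ. The brighter one, which stood for the gene, had a common value of -0.08 ± 0.05 (adjusted p 0.50), and the other -0.31 ± 0.06, at -0.37 on the left and -0.26 on the right (adjusted p 0.0041 over all probes). With the mean of both probes Irgm1 was called, at -0.20 (adjusted p 0.012). Like the clustered histone list below, this Gbp and Irg list was not among the lists used to choose the named genes. It gathers genes with the largest decreases in these same data, so its share of called genes is a description and not independent support.

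The interferon response and antigen presentation list showed the same direction more widely but at small size. Of 20 members tested, of 41 on the array, 7 were called lower (Gbp2, Gbp3, Igtp, Irf1, Ifit3, Ifitm3 and Oasl2) and 0 higher, against 0.76% of all genes called lower, and 18 were below 0 on both sides, against 25% of all genes. The list's median common change was -0.115, with -0.143 on the left and -0.116 on the right, and the median of all genes was 0.000565. At an unadjusted p below 0.05, 10 of the 20 passed, against 12.4% of all genes. Of the 7 called, 3 are also counted among the GTPases above, and a member had to be detected in all mice to be tested.

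Irf1, a transcription factor that interferon-gamma induces, had log2 signals of 8.16, 8.33 and 8.09 on the susceptible left and 7.91, 7.93 and 8.03 on the susceptible right arrays, against 8.36, 8.34 and 8.31 on the resilient left and 8.28, 8.27 and 8.35 on the resilient right arrays. The common change was -0.24 ± 0.05 (adjusted p 0.0069), and the groups overlapped on the left but not on the right. Ifit3, an antiviral protein of the tetratricopeptide family, changed by -0.22 on the left and -0.24 on the right (common adjusted p 0.013, but 0.058 with the mean over its probes). For Ifitm3, a membrane protein that blocks virus entry, these changes were -0.19 and -0.24 (adjusted p 0.016), and for Oasl2, of the oligoadenylate synthetase family, -0.34 and -0.11 (adjusted p 0.018). B2m, the light chain of class I antigen presentation, had a common value of -0.15 ± 0.05 and did not pass (adjusted p 0.14). The calls of Ifitm3 and Oasl2 were lost when single arrays were left out, Ifitm3 without resilient left replicate 3 or susceptible left replicate 1 and Oasl2 without resilient left replicate 2, resilient right replicate 1 or susceptible left replicate 3, at adjusted p values up to 0.053 and 0.079, and both with the means of left and right, 3 against 3 (0.071 and 0.063).

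The chemokine Ccl12, which attracts monocytes, moved like the GTPases. It read 6.83, 6.80 and 6.68 on the susceptible left and 6.84, 6.77 and 6.83 on the susceptible right arrays, against 7.22, 7.25 and 7.30 on the resilient left and 7.06, 7.07 and 7.19 on the resilient right arrays. The groups did not overlap, the control arrays lay at 6.64 to 6.80, and the common change was -0.39 ± 0.04 (adjusted p 1.2e-05). With normexp it was -0.82. S100a8, a calcium-binding protein of neutrophils and monocytes, changed by -0.33 on the left and -0.20 on the right (common adjusted p 0.0012). It was the only called gene of 3 blood myeloid genes tested, of 9 on the array, against 0.76% of all genes called lower. Complement gene C4b changed by -0.20 ± 0.05 (adjusted p 0.031), a call that was lost without any 1 of 8 of the 12 arrays: resilient left replicates 2 and 3, resilient right replicates 1 and 3, susceptible left replicates 2 and 3, or susceptible right replicates 1 and 3. It was also lost with left and right as a random block (adjusted p 0.057) and with 3 against 3 (0.086).

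**Figure D2:**
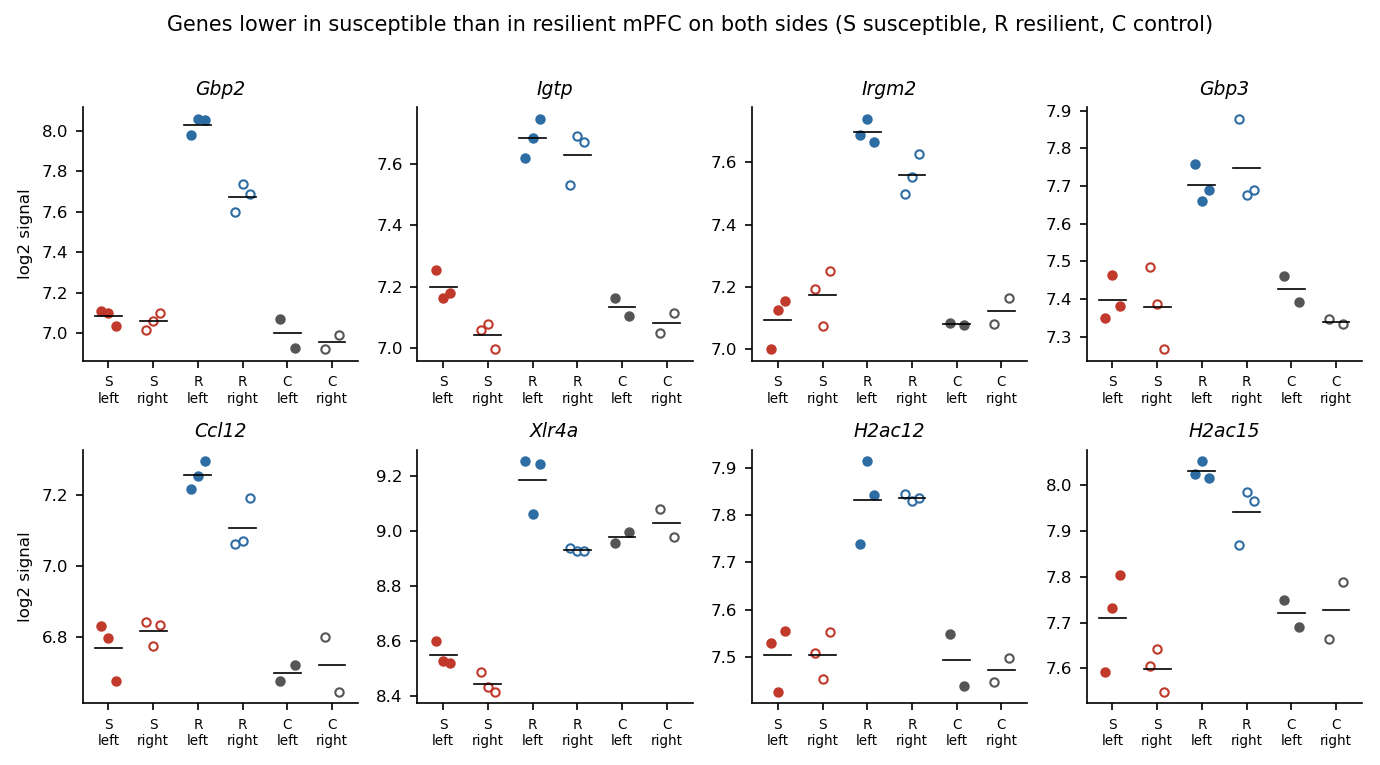
Log2 signal (y axis) of 8 genes on every array, with susceptible (S, red), resilient (R, blue) and control (C, grey) mice by side, filled for left and open for right, and a line at each mean. For all 8 the 6 susceptible arrays lie below the 6 resilient arrays, and for Gbp2, Igtp, Irgm2, Gbp3, Ccl12, H2ac12 and H2ac15 the controls lie near the susceptible mice.

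Marker lists of microglia, blood vessels and astrocytes held no gene called by limma. Of the 12 microglia genes tested 0 were called and 2 had an unadjusted p below 0.05, against 1.24% and 12.4% of all genes. Their median common change was -0.0164, with a range of -0.157 to 0.102. The member with the largest change, the complement gene C1qb, had a common value of -0.16 ± 0.06 (adjusted p 0.20). For endothelial and pericyte genes 0 of 9 were called and 1 had an unadjusted p below 0.05 (median 0.00589), and for astrocyte genes 0 and 2 of 11 (median 0.00858). The part of any cell type in the interferon changes was not tested, and in tissue RNA fewer cells of a type and less RNA per cell cannot be told apart.

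Clustered histone genes gave 5 further calls, all lower on both sides. Probes of clustered histone genes can bind several near-identical copies, so the gene named for a probe is uncertain. Among them were replication-dependent H2A genes, and the windows upstream of a pair of them are shown with each CCAAT box, in either orientation (CCAAT or ATTGG), in capitals.

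H2ac12 (chr13:22035644-22035763, minus strand): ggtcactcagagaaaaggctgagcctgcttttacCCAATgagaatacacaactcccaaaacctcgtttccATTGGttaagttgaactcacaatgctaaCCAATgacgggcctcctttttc

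H2ac15 (chr13:21753913-21754032, minus strand): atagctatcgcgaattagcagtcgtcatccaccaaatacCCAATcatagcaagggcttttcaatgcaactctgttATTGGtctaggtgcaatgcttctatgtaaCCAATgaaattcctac

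Each window held 3 CCAAT matches, as histone promoters often do, and 37.4% of the 32851 promoter windows of 300 bases hold at least 1. Of the other called histone genes, H2ac7 held 4, H2ac20 3 and H4c8 0 in windows of 300 bases. H2ac12 had log2 signals of 7.53, 7.43 and 7.56 on the susceptible left and 7.51, 7.45 and 7.55 on the susceptible right arrays, against 7.74, 7.91 and 7.84 on the resilient left and 7.84, 7.83 and 7.84 on the resilient right arrays. H2ac15 had 7.59, 7.73 and 7.80 on the susceptible left and 7.61, 7.64 and 7.55 on the susceptible right arrays, against 8.02, 8.05 and 8.02 on the resilient left and 7.87, 7.98 and 7.97 on the resilient right arrays. Neither gene's groups overlapped on either side. The common changes were -0.33 ± 0.04 for H2ac12 (adjusted p 0.00012) and -0.33 ± 0.05 for H2ac15 (adjusted p 0.00014), and each was the same on both sides to within 0.02.

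H2ac7 changed by -0.37 ± 0.06 (adjusted p 0.0019), the largest of the group, with susceptible arrays at 7.46 to 7.86 and resilient arrays at 7.94 to 8.11. H2ac20 changed by -0.22 ± 0.05 (adjusted p 0.033) and H4c8 by -0.19 ± 0.05 (adjusted p 0.031), and both of these calls were lost without any 1 of 8 of the 12 arrays, at adjusted p values up to 0.11 and 0.093. For H2ac20 these were resilient replicates 2 and 3 of each side, susceptible left replicates 1 and 2 and susceptible right replicates 2 and 3, and for H4c8 resilient replicates 1 and 3 and susceptible replicates 2 and 3 of each side. With left and right as a random block their adjusted p values were 0.062 and 0.057, and with 3 against 3 they were 0.079 and 0.12. Over all 24 clustered histone genes tested, of 45 on the array, 5 were called lower (against 0.76% of all genes) and 0 higher, 3 were called lower on the left alone and 2 on the right alone, and 20 were below 0 on both sides, against 25% of all genes. Their median common change was -0.121, with -0.0915 on the left and -0.153 on the right. At an unadjusted p below 0.05, 13 of the 24 passed, against 12.4% of all genes. This list was drawn up after the values were seen.

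Xlr4a, an X-linked lymphocyte-regulated gene with near-identical copies beside it, had the second largest decrease. Its log2 signal was 8.60, 8.53 and 8.52 on the susceptible left and 8.49, 8.43 and 8.41 on the susceptible right arrays, against 9.25, 9.06 and 9.24 on the resilient left and 8.94, 8.93 and 8.93 on the resilient right arrays. Here the 4 control arrays, at 8.96 to 9.08, lay with the resilient mice, and the susceptible arrays stood apart from both. The common change was -0.56 ± 0.05 (adjusted p 5.1e-08), called on each side.

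Control mice give a description of which group stood apart, although all 4 control arrays lie in the first 8 columns of the table with replicate 1 of each defeated group. For the 64 lower genes the control mean was nearer the susceptible than the resilient mean in 49 (76.6%), against 54.4% of all genes with a value below 0. This held for all 7 called interferon genes (14 of the 20 tested, 70%), for 4 of 5 called histone genes (15 of the 24 tested, 62.5%) and for 6 of the 10 myelin genes called with the same sign (9 of the 16 tested, 56.2%). Of the 25 higher genes it was nearer the susceptible mean in 15 (60%), against 46.1% of all genes with a value above 0. No test was made of these shares. Within the first 8 columns (replicate 1 alone, 2 arrays a group) the common change of Gbp2 was -0.72, and within the last 8 columns -0.81. For Igtp these values were -0.42 and -0.60, for Irgm2 -0.50 and -0.49, for Xlr4a -0.55 and -0.57, and for H2ac12 -0.27 and -0.36.

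Of the 89 genes, 40 had an unadjusted p below 0.05 on each side separately, 29 of them lower and 11 higher. This is a check within the same arrays and not an independent one. A further 32 lower and 8 higher genes passed on the left only, and 3 and 6 on the right only. The difference between sides was called for 18 of the 64 lower and 0 of the 25 higher genes, against 1.88% of all genes. Besides the genes above, the 29 lower genes that passed on each side were mixed in kind. They included Cdca7, a cell division gene, at -0.31 on the left and -0.19 on the right, and Vegfd, a lymphatic growth factor, at -0.19 and -0.22. Igfbp5, which binds insulin-like growth factors, changed by -0.20 on each side, and Ide, the insulin-degrading enzyme, by -0.23 and -0.19. Acer2, a Golgi ceramidase, changed by -0.16 on the left and -0.31 on the right. These 5 were chosen after their values were seen.

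Myelin genes were also among the lower genes, with calls on the left only. Of 16 tested, 13 were called lower in the common change (against 0.926% of all genes), 10 of them with the same sign on both sides. That sign is the one of the brightest probe. A dimmer probe of Mal, Mobp and Cnp was at 0.04, 0.02 and 0.03 on the right, and a further Mobp probe at -0.05. All 16 were called lower on the left (against 1.34% of all genes) and 0 on the right (against 0.404%), where 2 had an unadjusted p below 0.05, against 11.4% of all genes, and the difference between sides was called for all 16 (against 1.88%). The median change was -0.657 on the left and -0.0437 on the right. The common value of these genes is therefore the mean of a left change and a right value near 0.

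Trf, the iron carrier transferrin that oligodendrocytes make, shows the pattern. It read 9.94, 10.08 and 9.91 on the susceptible left and 10.76, 10.65 and 10.77 on the susceptible right arrays, against 10.85, 10.75 and 10.71 on the resilient left and 10.88, 10.79 and 10.75 on the resilient right arrays. The left groups lay far apart and the right groups overlapped, for changes of -0.80 and -0.08 and a common change of -0.44 ± 0.05 (adjusted p 4.8e-06). Mobp, Mag, Mal, Bcas1, Cnp and Prr18, which encode myelin proteins or mark oligodendrocytes, had common changes of -0.41 to -0.37, with left changes of -0.73 to -0.63 and right values of -0.14 to -0.01. Their differences between sides were all called, at adjusted p values of 0.00022 to 0.026. Ndrg1, which is needed for the upkeep of myelin, changed by -0.57 on the left and -0.19 on the right, and its difference between sides did not pass (adjusted p 0.29).

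The oligodendrocyte lineage below the stage of mature myelin had 2 called genes of 8 tested, against 1.06% of all genes. Enpp6, a choline phosphodiesterase of newly forming oligodendrocytes, read 7.56, 7.49 and 7.68 on the susceptible left and 8.24, 8.10 and 8.14 on the susceptible right arrays, against 8.38, 8.33 and 8.27 on the resilient left and 8.37, 8.29 and 8.25 on the resilient right arrays. The right groups were only narrowly apart, and the common change of -0.45 ± 0.05 (adjusted p 4.0e-06) came from -0.75 on the left and -0.14 on the right. Sox8, a transcription factor of the lineage, changed by -0.17 and -0.23 (adjusted p 0.048), and this call was lost without any 1 array but resilient right replicate 1 or susceptible right replicate 2, and with left and right as a random block (adjusted p 0.087) or 3 against 3 (0.11).

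**Figure D3:**
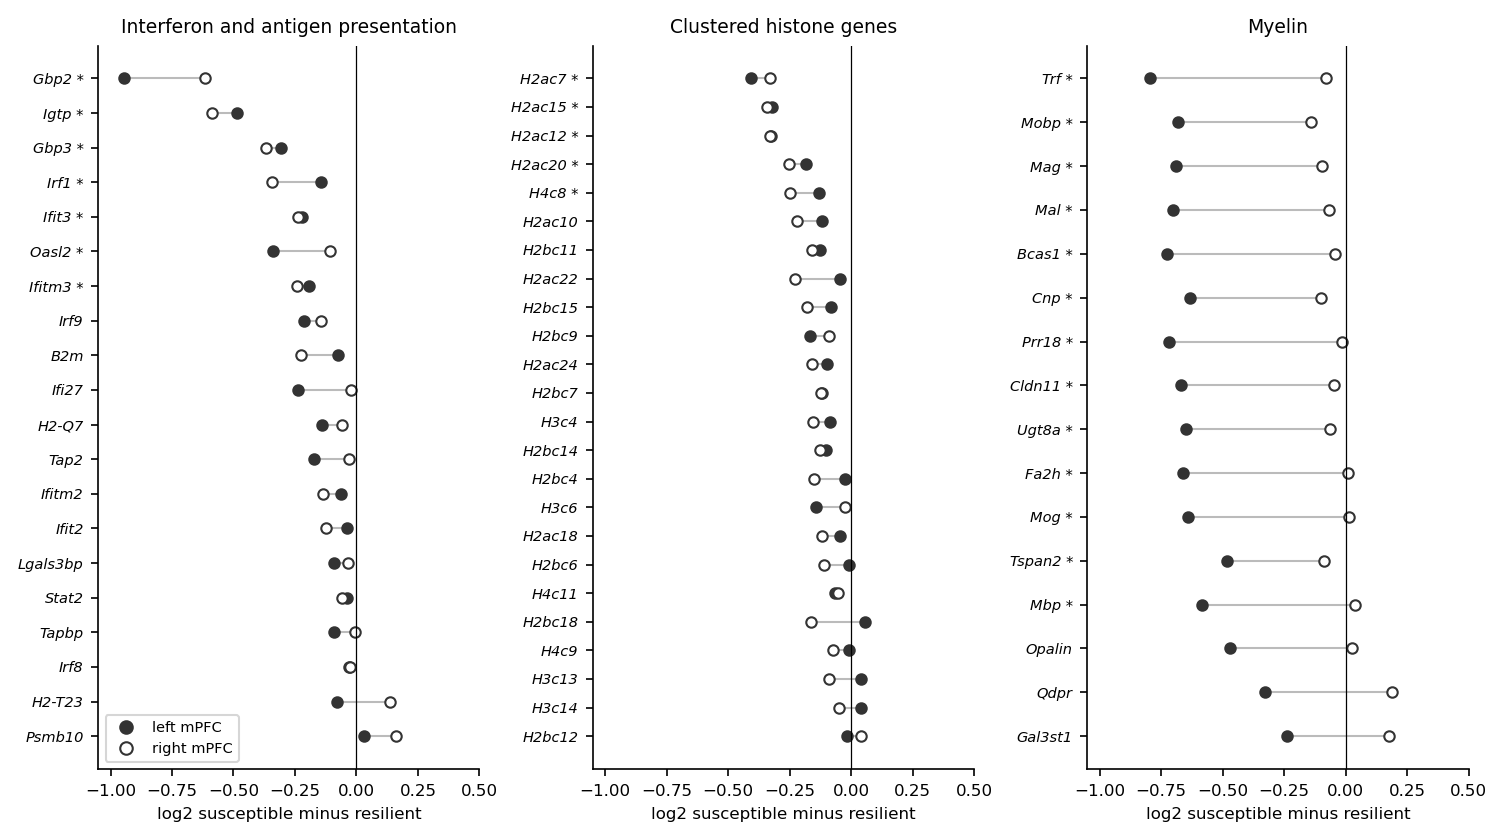
Susceptible minus resilient log2 change (x axis) of each tested member of the interferon, clustered histone and myelin lists, with filled points for the left and open points for the right mPFC and a star for a called common change of either sign pattern. Both points lie below 0 for 18 of 20 interferon and 20 of 24 histone genes, whereas the 16 myelin genes have left points of -0.80 to -0.24 and right points of -0.14 to 0.19.

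Other lists that mark position or layer also held opposite or one-sided changes. Of the striatal projection neuron genes 8 were tested and 2 were called lower, against 0.76% of all genes. Drd1, the D1 dopamine receptor, changed by -0.50 on the left and -0.10 on the right. Rgs9, a regulator of G protein signalling, changed by -0.52 and -0.06. The list was mixed, with 6 common values below 0 and 2 above, and 4 of 8 genes had the same sign on both sides. On the left 4 members were called lower and 1 higher, against 2.04% of all genes called there. On the right 1 was called lower and 1 higher, against 0.558%. A further 15 called genes had opposite signs on the 2 sides and are not counted as common. They include Ccn2 (Ctgf in the article), a matrix protein that marks layer 6b, at -0.87 on the left and 0.08 on the right. Mbp, the main protein of compact myelin, was at -0.58 and 0.04 (common adjusted p 0.00046, but 0.075 with the mean over its probes), and Sulf1, a heparan sulfatase, at -0.56 and 0.08. Slc13a4 and Gjb2, a sulfate transporter and a connexin of the meninges, went the other way, at 0.15 and 0.17 on the left and -0.61 and -0.55 on the right. The call of Gjb2 was lost without any 1 array but resilient right replicate 2 or susceptible left replicate 3, and with left and right as a random block (adjusted p 0.062) or 3 against 3 (0.12). That of Slc13a4 was lost without resilient left replicate 3. The layer 2/3 list had 0 of 7 called in the common change and 3 at an unadjusted p below 0.05, against 1.24% and 12.4% of all genes. Its median was 0.271 on the left and -0.241 on the right. The layer 6 and 6b list had 2 of 11 called in common, Ccn2 and Sulf1, and 8 at an unadjusted p below 0.05, against the same shares. All 11 had common values below 0. On the left 6 were called lower, against 1.34% of all genes, and on the right 0, against 0.404%. The list's median was -0.278 on the left and 0.00722 on the right.

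The higher genes were fewer, and Npas4 led them. Npas4 is a neuronal transcription factor that activity induces within minutes and that shapes inhibitory synapses. Its log2 signal was 7.99, 8.04 and 8.07 on the susceptible left and 7.92, 7.84 and 7.97 on the susceptible right arrays, against 7.49, 7.52 and 7.73 on the resilient left and 7.62, 7.60 and 7.68 on the resilient right arrays. All 6 susceptible arrays lay above all 6 resilient arrays, and the control arrays, at 8.39 to 8.54, lay above both. The common change was 0.37 ± 0.05 (adjusted p 6.5e-05), at 0.46 on the left and 0.28 on the right. Npas4 was the only called gene of 16 immediate early genes tested, against 1.06% of all genes. The median of the 16 was 0.122 on the left and -0.131 on the right. Late activity genes had 0 of 16 called and 3 at an unadjusted p below 0.05, against 1.24% and 12.4% of all genes.

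Vamp1, Pvalb and Hapln4 were also higher on both sides. Vamp1, a vesicle protein that drives transmitter release, read 8.30, 8.40 and 8.45 on the susceptible left and 8.62, 8.52 and 8.50 on the susceptible right arrays, against 8.21, 8.13 and 8.19 on the resilient left and 8.19, 8.19 and 8.28 on the resilient right arrays. Pvalb, the calcium buffer parvalbumin, read 11.65, 11.65 and 11.58 on the susceptible left and 11.71, 11.86 and 11.82 on the susceptible right arrays, against 11.42, 11.57 and 11.47 on the resilient left and 11.31, 11.51 and 11.57 on the resilient right arrays. The groups of both genes did not overlap, though for Pvalb only narrowly, and control mice lay within or above the susceptible range for both, at 8.40 to 8.62 and 11.77 to 11.94. The common changes were 0.27 ± 0.04 for Vamp1 (adjusted p 0.0014) and 0.24 ± 0.05 for Pvalb (adjusted p 0.014, but 0.056 with 3 against 3). Hapln4, a link protein of perineuronal nets, changed by 0.24 ± 0.05 (adjusted p 0.017), with susceptible arrays at 9.61 to 9.74 and resilient arrays at 9.30 to 9.60. Its call was lost without resilient left replicate 1, resilient right replicate 1 or 3, susceptible left replicate 3 or susceptible right replicate 1, at adjusted p values up to 0.058, and with 3 against 3 (0.070).

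These 3 genes were chosen by the size of their change and do not stand for a list. Pvalb was the only called gene of 14 interneuron genes tested (median 0.0120), and Vamp1 the only one of 38 synaptic vesicle genes (median 0.0108), against 1.06% of all genes.

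Red cell genes gave 2 higher calls of 3 genes tested, against 0.297% of all genes. Hba-a1, an alpha chain of hemoglobin with a near-identical copy, had log2 signals of 13.24, 13.27 and 13.11 on the susceptible left and 12.93, 12.89 and 12.82 on the susceptible right arrays, against 12.77, 12.85 and 12.68 on the resilient left and 12.63, 12.81 and 12.83 on the resilient right arrays. The groups overlapped on the right only, the difference between sides did not pass (adjusted p 0.13), and control mice were lowest, at 12.04 to 12.14. The common change was 0.28 ± 0.05 (adjusted p 0.0026). Alas2, the first enzyme of heme synthesis in red cells, changed by 0.36 on the left and 0.17 on the right (adjusted p 0.035, and 0.66 for the difference between sides). This call was lost without any 1 of resilient left replicates 2 and 3, resilient right replicates 1 and 3, susceptible left replicate 3 and susceptible right replicates 1 and 2. It was also lost with left and right as a random block (adjusted p 0.083). Alas2 has a single detected probe, and its adjusted p was 0.059 when other genes were averaged over their probes. All 3 red cell genes tested were above 0 on both sides (against 26.4% of all genes), at 0.19 to 0.28 in common. The share of blood in the tissue was not tested.

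**Figure D4:**
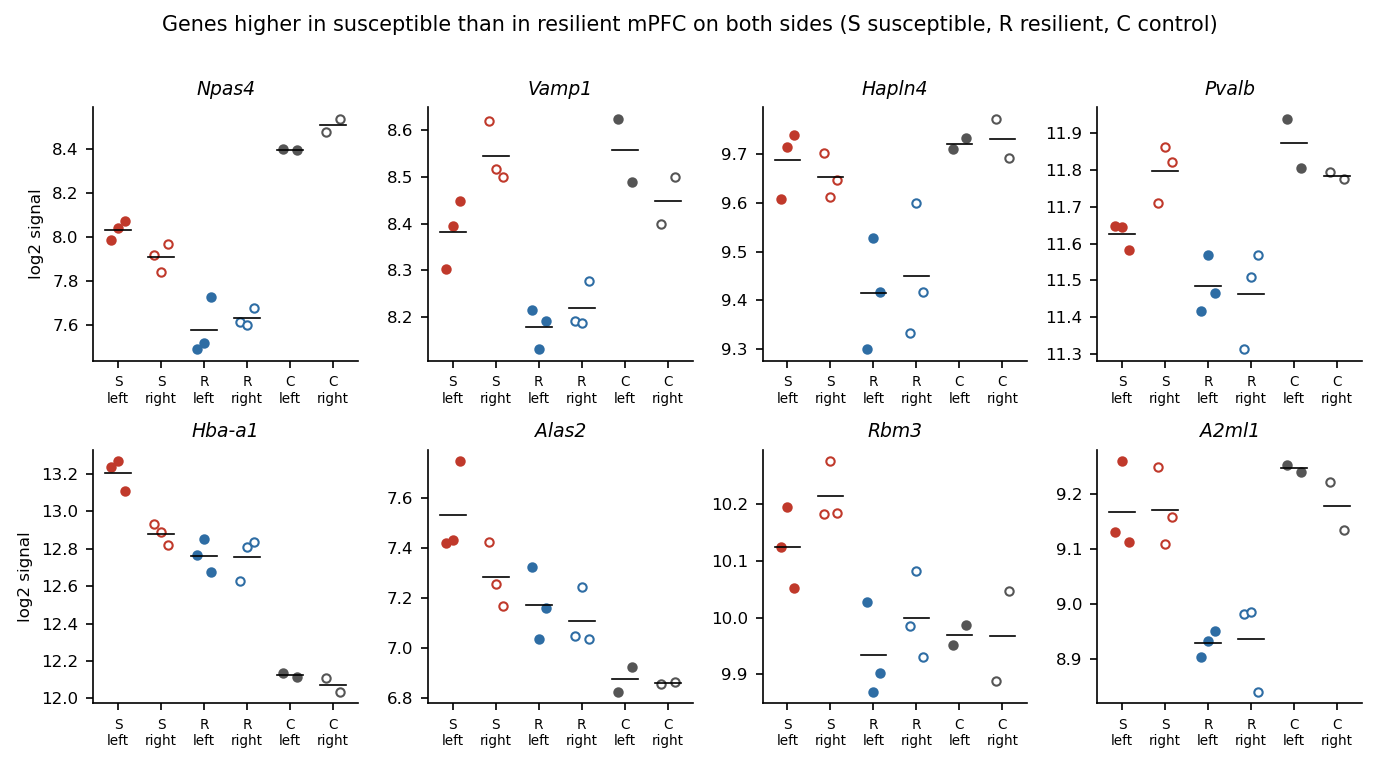
Log2 signal (y axis) of 8 genes on every array, drawn as for the lower genes with susceptible (S), resilient (R) and control (C) mice by side. The susceptible arrays lie above the resilient ones on both sides for Npas4, Vamp1, Hapln4, Pvalb, Rbm3 and A2ml1, and overlap them on the right for Hba-a1 and Alas2.

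The other higher genes belong to no list used here or were its only called member. A2ml1, a protease inhibitor of the alpha-2-macroglobulin family, changed by 0.24 on each side (adjusted p 0.0069), and its susceptible arrays, at 9.11 to 9.26, lay above the resilient ones, at 8.84 to 8.98. Diaph3, a formin that builds actin filaments, changed by 0.11 on the left and 0.35 on the right (adjusted p 0.0071), and Fkbp2, a peptidyl-prolyl isomerase of the endoplasmic reticulum, by 0.15 and 0.30 (adjusted p 0.015). The chemokine Ccl21a, a ligand of the receptor Ccr7, changed by 0.23 and 0.19 (adjusted p 0.013). Rbm3, an RNA-binding protein that cold induces, changed by 0.19 and 0.22 (adjusted p 0.027). Krt222, a keratin-like protein, had 0.13 on the left and 0.45 on the right (adjusted p 0.031), and the right value held 1 resilient array far below the others, at 7.29. Dynll2, a dynein light chain, Hs3st1, a heparan sulfate sulfotransferase, Krt12, a keratin, and Cox6a2, a subunit of cytochrome oxidase, changed by 0.20 to 0.24 in common, at adjusted p values of 0.026 to 0.038. Krt12 had 0.35 on the left and 0.05 on the right, where its groups overlapped, and the difference between sides did not pass (adjusted p 0.15). Dynll2, Hs3st1 and Cox6a2 changed by 0.17 to 0.22 on the left and 0.18 to 0.26 on the right.

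Of the 17 higher genes named here, 10 lost their call when single arrays were left out, Alas2 and Hapln4 as given above. Fkbp2 lost it without resilient left or right replicate 3, at an adjusted p of up to 0.053. Krt222 lost it without resilient left replicate 1 or 3, resilient right replicate 3, susceptible left replicate 1 or 2, or susceptible right replicate 1 or 3, and Rbm3 without resilient left replicate 2 or 3, resilient right replicate 1 or 3, susceptible left replicate 1 or 2, or susceptible right replicate 2. For Dynll2 these were resilient left replicates 2 and 3, resilient right replicates 1 and 3, susceptible left replicates 2 and 3 and susceptible right replicates 1 and 3. Hs3st1 lost its call without any resilient left array, resilient right replicate 1 or 2, susceptible left replicate 3, or susceptible right replicate 1 or 3. Krt12 kept it only without resilient left replicate 2, resilient right replicate 1 or susceptible left replicate 1, Cox6a2 only without resilient left replicate 3 or susceptible right replicate 3, and Rpl7a only without resilient left replicate 1 or susceptible right replicate 2. All 10 kept their direction. With left and right as a random block, Krt222, Hs3st1, Rbm3, Krt12, Cox6a2 and Rpl7a also lost their calls (adjusted p 0.052 to 0.076), and with 3 against 3 these 6, Dynll2, Fkbp2 and Ccl21a did (0.063 to 0.14). Over the 46 called genes named here with the same sign on both sides, 30 stayed called without any 1 array, among them Gbp2, Igtp, Irgm2, Gbp3, Ccl12, Xlr4a, H2ac7, H2ac12, H2ac15, Npas4, Vamp1 and Pvalb. Of the 46, 11 lost their call with left and right as a random block and 17 with 3 against 3.

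Many lists fixed for this tissue gave no called gene in the common change. These were the layer 2/3 and layer 5 neuron, cortical neuron, late activity, glucocorticoid target, circadian clock, metallothionein, neuropeptide, cholesterol, heat shock, glutamate receptor, GABA receptor, potassium channel, respiratory chain and proteasome lists. Their medians lay between -0.0231 and 0.0324, and of their 288 genes 42 (14.6%) had an unadjusted p below 0.05. Of all genes 1.24% were called and 12.4% had such an unadjusted p. The respiratory chain list as drawn up does not hold Cox6a2, the cytochrome oxidase subunit called higher above. Hsd11b1, which regenerates active glucocorticoid, came closest among the glucocorticoid targets, with a common change of 0.18 ± 0.05 (adjusted p 0.069). Grp, gastrin-releasing peptide, had a value of -0.22 ± 0.06 (adjusted p 0.067), and Per2, a clock gene, had 0.05 on the left and -0.35 on the right. Of the 30 alternatives with a test, 4 called Hsd11b1, 5 called Grp and 0 called Per2. Of 52 ribosomal protein genes Rpl7a alone was called, against 1.06% of all genes. It was higher by 0.20 ± 0.05 (adjusted p 0.037), while 40 of the 52 had values below 0. Of the 3 genes that the study used for reference, Gapdh had a common value of 0.00 ± 0.04, Actb 0.13 ± 0.04 (adjusted p 0.14) and B2m -0.15. None was called, and 2 of the 3 had an unadjusted p below 0.05. The Actb value is that of its brightest probe, and its other detected probes lay at -0.03 to 0.04.

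**Figure D5:**
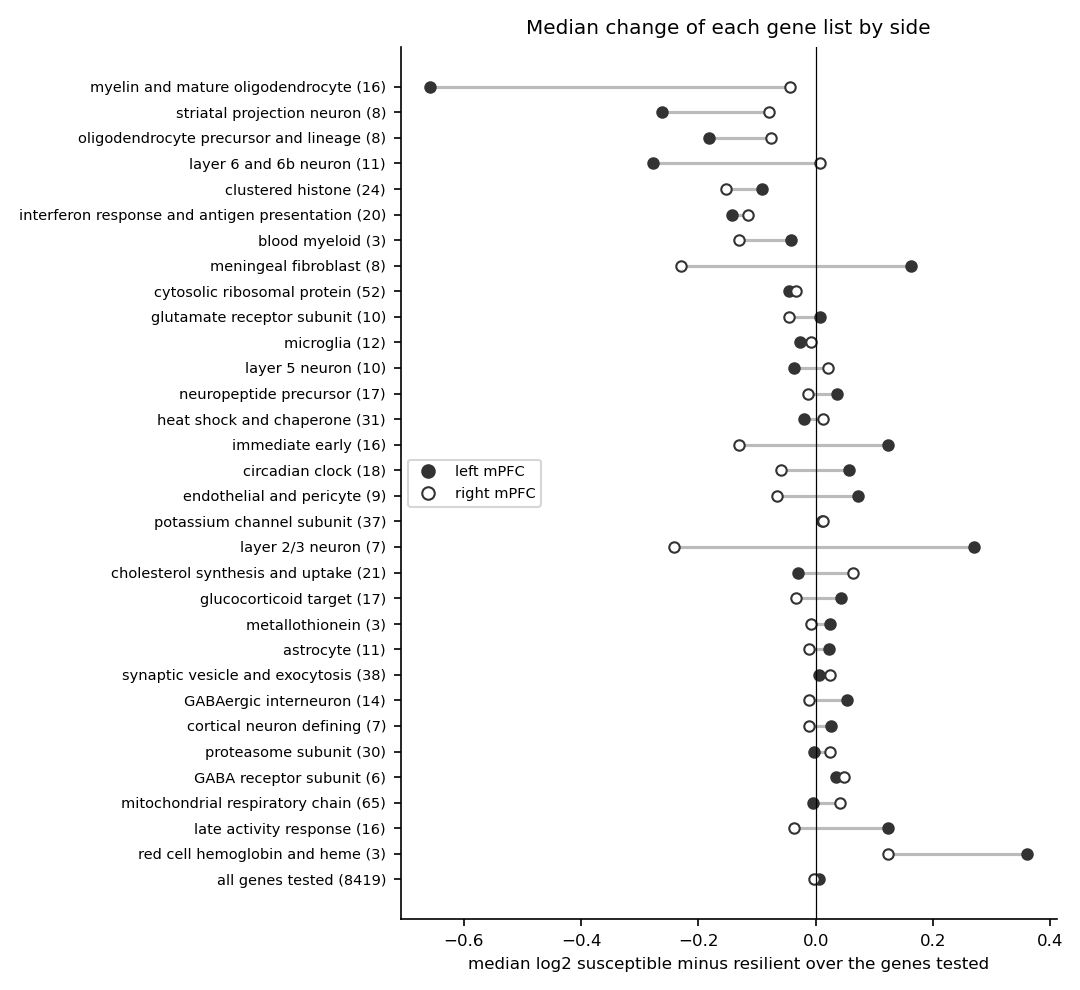
Median susceptible minus resilient log2 change (x axis) over the tested members of each list (number of genes in parentheses), with filled points for the left and open points for the right mPFC. The interferon and histone lists lie below 0 on both sides, the myelin list is at -0.657 on the left and -0.0437 on the right, and the layer 2/3 list is at 0.271 and -0.241.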

How the data were processed

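Total RNA of the left or right mPFC was measured on 16 arrays of Illumina MouseRef-8 v2 BeadChips. How the arrays were divided over the chips is not given in the sources used here. Per the labels and the study's methods, the authors read them with GenomeStudio 1.0.6. They deposited the average intensity of each of 25697 probes on a linear scale (51.9 to 37310), a detection score, a fraction from 0 to 1 that their software gives each probe and array, taken here as 1 minus the detection p, and log2 values normalized with lumi (6.91 to 15.03), whose version and normalization method are not given in the sources used here. Symbols came from GEO's platform table, updated to RefSeq through the Entrez identifier (23962 probes).

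Intensities were taken to log2 and quantile normalized over the 16 arrays with limma 3.58.1 in R 4.3.3. Probes with a detection p of 0.05 or less on all arrays were kept (11922, 700 of them without symbol), and the brightest probe stood for each of 8419 genes. Of the genes called with the same sign, 22 had several detected probes. For 4 of these (Eri3, Grb14, Kif5a and Trmt1l) a probe had a common change of the other sign, and signs on each side were not compared. A model with a mean for each group and side was fitted to the 12 arrays of defeated mice with lmFit and eBayes (8 residual and 14.4 prior degrees of freedom, prior SD 0.0847, median standard error of a common change 0.048). P values were adjusted over the 8419 genes by the Benjamini-Hochberg method. The number of arrays limits the precision. No 2 arrays were identical. The procedure was tested on simulated data.

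Named genes were up to 15 in each direction with the largest called common change of the same sign, up to 4 called members of each of 33 lists (otherwise the 1 with the largest change), the genes the article names for its arrays, and up to 4 in each direction with the largest difference between sides. H2ac12, H2ac15, H2ac20, H4c8, Cox6a2, Ifit3, Ifitm3, Oasl2, C4b and Irgm1 were chosen after their values were seen. The comparison, the lists and the genes were chosen with earlier results of these data known. The Gbp and Irg list and the clustered histone list were not among the lists used to choose named genes. Lists are described by counts and medians, with no test. Promoter sequences are RefSeq's for GRCm38.p6, and the arrays' own coordinates were not used. Alternatives changed the scaling, background, filter, probe choice, model and arrays. Plots were made in Python 3.11.15 (matplotlib 3.10.9).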

Additional observations from a re-analysis of the deposited data

Results flagged for a closer look

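The susceptible minus resilient change differed between sides by limma's interaction test for 25 of the named genes, given here as left minus right on the log2 scale. Among genes counted as common, it was -0.33 for Gbp2, -0.60 for Enpp6, -0.72 for Trf, -0.54 for Mobp, -0.59 for Mag, -0.63 for Mal, -0.69 for Bcas1, -0.53 for Cnp, -0.70 for Prr18, -0.40 for Drd1 and -0.46 for Rgs9, so all of these decreases were larger on the left. Among genes called with opposite signs it was -0.95 for Ccn2, -0.64 for Sulf1, -0.62 for Mbp, 0.76 for Slc13a4 and 0.72 for Gjb2. Among genes not called in common it was 0.99 for Tnnc1, 0.99 for Cux2, 0.92 for Dcn, 0.79 for Wfs1, 0.77 for Stard8, 0.49 for Igf2, 0.40 for Per2, -0.82 for Rprm and -0.77 for Scn4b.

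Single arrays stood apart from the other 5 of their group in 6 of 162 groups of 6 arrays, where chance flags about 1 in 20. Krt222 read 7.29 on resilient right replicate 3 (the others 7.70 to 7.83), Glul 7.83 on resilient right replicate 2, Enkur 6.74 on resilient right replicate 2 and H4c8 7.29 on resilient left replicate 2. In susceptible mice Dynll2 read 8.98 on left replicate 1 and C1qb 9.49 on left replicate 2.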

How the results depend on the processing

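All 89 genes kept their direction under the 29 alternatives that give 1 value a gene with a test, and with replicate 1 only. Some of these settings change only the error of the fit: no interaction term, all 16 arrays, the blocks and 3 against 3. They leave the value of each gene as it was, so its direction could not change. With every probe on its own, 4 of them (Eri3, Grb14, Kif5a and Trmt1l) had a further probe with a common change of the other direction. The number of higher and lower calls (25 and 64) was 0 and 4 with median scaling, which shifted the median of all genes by -0.0298, 13 and 38 without the interaction term, 6 and 35 with the mean of left and right (3 against 3), and 7 and 33 with replicates 2 and 3 only. It was 14 higher with normexp, 12 higher (47 lower) with left and right of one number as a random block, 49 higher with all 16 arrays and 39 higher with the table position (first or last 8 columns) as a block. Of the 89 calls, 75 were shared with the authors' normalized values, 59 with the random block, 41 with 3 against 3 and 32 with replicates 2 and 3 only. Leaving out 1 array gave 11 (without resilient left or right replicate 3 or susceptible left replicate 3) to 27 (without resilient right replicate 2) higher calls and 41 (without resilient left replicate 3) to 64 lower ones. Of the 46 called genes named with the same sign, Gbp2, Igtp, Irgm2 and Ccl12 passed all 30 alternatives with a test.

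The left count (172) was 17 with median scaling, 94 with replicates 2 and 3 only and 113 (without susceptible left replicate 3) to 175 with 1 array left out, and 114 without resilient left replicate 3. The right count (47) was 2, 19 and 24 (without susceptible right replicate 1) to 52 in these settings, 28 without resilient and 25 without susceptible right replicate 3, and 74 with the table position as a block. The count of differences between sides (158) was 0 (159 at an unadjusted p below 0.05), 74 and 111 to 137. The interferon median (-0.115) was -0.146 with median scaling, -0.0928 with the authors' values, -0.194 with normexp, -0.148 with replicates 2 and 3 only and -0.136 to -0.0991 with 1 array left out. The myelin median (-0.357) was -0.388 with median scaling, -0.333 with the authors' values and -0.359 to -0.338 with 1 array left out, and the histone median (-0.121) -0.161 with normexp and -0.128 to -0.105. The cause of these differences was not tested.

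The labels do not say what arrays of one number share, and number 1 also stands apart in the table. Susceptible and resilient arrays of one side and number deviated together by correlations of 0.25, 0.019 and 0.035 on the left and 0.22, 0.18 and 0.08 on the right, and left and right arrays of one number by 0.19, 0.17 and 0.092 in susceptible and 0.34, -0.02 and 0.059 in resilient mice, so not every pair exceeded 0.1. With the number as a replicate block, 53 genes were called higher, 84 lower and 77 on the right, and all 89 calls were shared.

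Values near 0 changed sign. Enkur was 0.00105 with array weights, 0.0018 with replicates 2 and 3 only and -0.0542 to 0.0287 with 1 array left out. Mt3 was 0.0156 with replicate 1 only and -0.0522 to 0.00365 with 1 array left out, and Psmb5 -0.101 with replicate 1 only. Gapdh was -0.0319 with median scaling, -0.0186 with cyclic loess, -0.0236 with replicate 1 only and -0.0125 to 0.0174 with 1 array left out.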
